A study of Mus musculus with 48 samples.

Results

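The 33 genes described here are markers of 3 non-parenchymal cell types of the liver: 12 mark Kupffer cells, 11 mark endothelial cells and 10 mark hepatic stellate cells. They were taken by gene symbol, and all 33 were found among the 20622 genes of the cytoplasmic RNA tables and among the 16269 genes with a transcript in the tables of ribosome-protected fragments (RPFs). RPFs are the stretches of mRNA that a translating ribosome shields from nuclease, so their count over a coding sequence follows how many ribosomes were on it. Both libraries were made from the same lysate of each of 24 livers, 3 mice in each of 8 groups. The mice were wild-type (WT), Ctnnb1ex3/+ (B, in which Cre removes exon 3 of one Ctnnb1 allele and leaves a stabilized β-catenin), R26-LSL-MYC (M, in which Cre releases a MYC transgene) or Ctnnb1ex3/+; R26-LSL-MYC (BM). Per the sample labels all were males of 2 to 4 months. Every mouse, WT included, received AAV8.TBG.Cre, at a dose that the labels give as 2e+11 genome copies per mouse in one field and per ml in another, and was taken 4 or 10 days afterwards. The TBG promoter limits Cre to hepatocytes, so the cells that these 33 genes mark were not the cells in which the alleles were meant to recombine. The study asked with these libraries what mRNA translation does in livers with activated WNT signalling and MYC, and the markers show what the remaining cells of the same livers looked like.

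Kupffer cells are the resident macrophages of the liver sinusoids and clear particles, bacteria and dying cells from the portal blood. Sinusoidal endothelial cells line the same vessels, are fenestrated and take up waste from plasma through scavenger receptors. Stellate cells lie between the endothelium and the hepatocytes, store vitamin A, and can turn into myofibroblasts that lay down collagen. Livers were ground whole, with no sorting of cells, and hepatocytes contribute most of the RNA. In such bulk tissue, fewer cells of a type and less RNA per cell cannot be told apart, and any level is a share of its library.

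RPF libraries held 9742197 to 14380713 counts (median 12503695) and RNA libraries 3254141 to 6540116 (median 5077217). The RNA libraries of BM livers at day 10 were the shallowest, at 3254141 to 4060257, against at least 4537343 in every other group. Glul, a β-catenin target, had 3060 to 5185 RPF CPM (counts scaled to a common library size with TMM factors) in B livers against 511 to 862 in WT livers, with no overlap between the genotypes, and reads counted to Myc were at 43.6 to 62.1 RPF CPM in M livers against 2.43 to 18.3 in WT livers. Across 12 hepatocyte genes, Alb among them, the summed RNA level was 116200 to 125400 CPM in WT livers and 42930 to 53560 in BM livers at day 4, and 117600 to 118500 against 46750 to 52800 at day 10. In B and M livers the sum was 85300 to 109600 and 72720 to 91760 CPM at day 4, and 48670 to 57130 and 57190 to 68110 at day 10. It was thus below WT in all 3 genotypes on both days, and B livers of day 10 overlapped with BM livers. This drop of hepatocyte mRNAs moved with the genotypes, and its part in the marker changes was not tested. When libraries were scaled by their totals instead, the median log2 fold change (log2FC) of all genes was 0.54 on RNA and 0.42 on RPFs in BM livers at day 4, and 0.43 and 0.41 at day 10. All changes are given on the TMM scale, where that median was near 0, and so are changes relative to the average gene.

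A pair of mice stood apart in the marker genes. BM mouse 1 of day 10 had a Cd163 RPF level of 63.6 CPM against 176 and 194 CPM in the other BM mice of that day. Its summed RPF level of 6 myofibroblast genes was 1938 CPM, against 564 and 514. M mouse 2 of day 4 had 60.9 RNA CPM of Marco, where the other M mice of that day had 4.94 and 1.11. Its summed RNA level of the 12 Kupffer markers was 642 CPM against 310.0 and 226.8 in the other M mice. BM mouse 1 of day 10 was also lowest of the BM mice of that day in the summed level of 5 blood genes, with 215 RNA CPM against 639 and 870 and 408 RPF CPM against 1375 and 1895. WT livers of that day had 846, 532 and 586 RNA CPM and 1129, 895.5 and 1038 RPF CPM of these genes. The part of blood in the marker levels of this mouse was not tested.

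In WT livers, abundances of different markers were compared per length, as TPM (the share of a library's length-scaled counts) for RNA and as the equivalent over codons for RPFs. Dcn, the small matrix proteoglycan decorin, had the most abundant mRNA of the 33, at 186 ± 42.8 TPM (SD, n = 6 mice), and ranked 554 among all genes. Clec4g, an endothelial lectin, followed at 66.6 ± 9.66 TPM, and Fcgr2b, an inhibitory Fc receptor of sinusoidal endothelium, at 54.1 ± 8.17 TPM. The spreads of the neighbours Clec4g and Fcgr2b overlapped, and so did those of Fcgr2b, Clec4f (47.6 ± 9.38), Cd5l (45.9 ± 12.5) and Vsig4 (44.5 ± 10.8). Dcn stood clear of every other marker. At the low end were Des (desmin, 0.928 ± 0.392 TPM) and Col1a1 (1.03 ± 0.398 TPM), whose spreads also overlapped. Des had as little as 1 RNA count in a library, and its RNA was not tested in BM livers, nor in B livers at day 10. On RPFs, Dcn was again highest at 342 ± 32.8 on that scale, followed by Ecm1 at 171 ± 19.4, Cd5l at 152 ± 21.6 and Clec4f at 150.0 ± 18.6, which did not differ beyond their spreads.

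Translation efficiency (TE) is the RPF level over the RNA level, here per length and on the log2 scale. Among 8715 genes with at least 10 counts in every library, the median log2 TE in WT livers was 0.28. Col1a1 was the highest of the 33 markers, with a log2 TE of 3.14 ± 0.50 (SD, n = 6), above 99.2% of those genes, and Col1a2, its partner chain in type I collagen, 2.68 ± 0.30, above 98.2%. Ecm1, an extracellular matrix glycoprotein of stellate cells, reached 2.32 ± 0.34, Cd68, a lysosomal glycoprotein of macrophages, 2.28 ± 0.37, and Eng, a co-receptor for TGF-β family ligands, 2.24 ± 0.32. These 3 were close to each other and differed by less than their spreads. Col1a1 and Cd68 had as few as 5 and 7 RNA counts in a library, so they are ranked against a set that they would not enter. At the lower end, Egfl7, a small secreted protein of endothelium, had a log2 TE of -1.58 ± 0.51, above 6.75% of genes. Vsig4, a complement receptor of Kupffer cells, followed at -0.60 ± 0.26, and Pecam1, an adhesion molecule at endothelial junctions, at -0.43 ± 0.12. Ptprb (-0.20) and Fcgr2b (0.10), both endothelial, were the only other markers below the median of all genes. All 10 stellate markers lay above it, Colec11 lowest at 0.54 ± 0.19. RNA length was the effective length in the tables and RPF length the coding sequence, so the ratio also carries any mismatch between the transcripts counted in each.

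**Figure D1:**
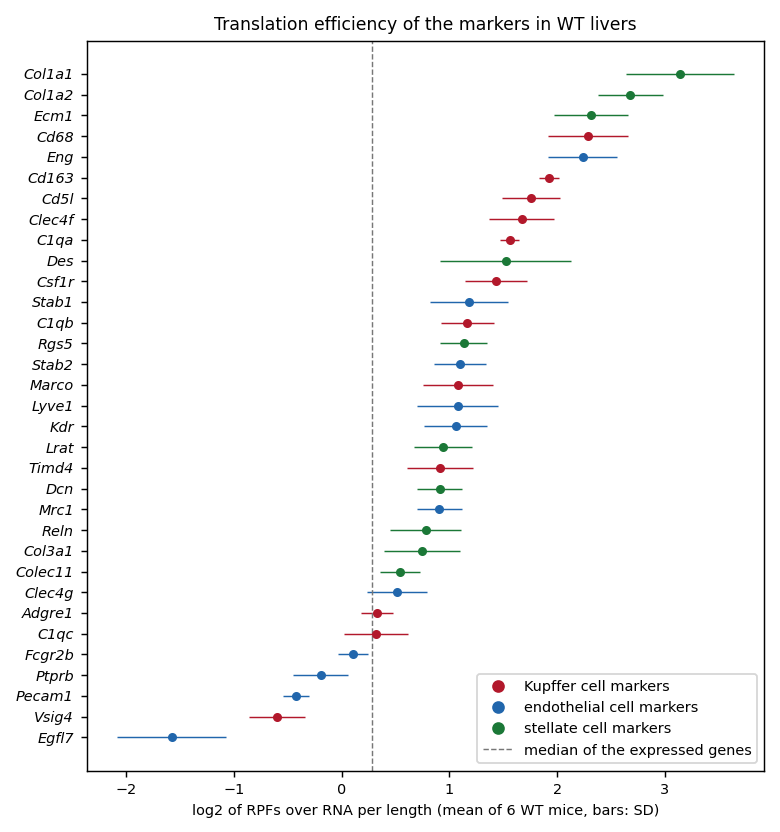
Translation efficiency of the 33 markers in WT livers, as log2 of the RPF level over the RNA level per length (x axis, no unit), 1 row per gene. Points are means of 6 mice, bars are SD, colours give the cell type, and the dashed line is the median of 8715 expressed genes at 0.28. Col1a1 lies highest at 3.14 and Egfl7 lowest at -1.58.

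Differences between groups were tested gene by gene over all genes (edgeR quasi-likelihood test, Benjamini-Hochberg adjusted p under 0.1, n = 3 mice per group), and a gene is said to rise or fall only where it passed. In BM livers at day 4, 28 of the 32 markers tested on RNA fell and 0 rose, where 20.6% of all genes fell and 21.3% rose. On RPFs 26 of 33 fell and 0 rose, against 24.7% of all genes falling. Under scaling by library totals, these splits were 2 up and 16 down on RNA and 4 up and 11 down on RPFs. At day 10 the markers of BM livers moved both ways: 8 of 32 rose and 15 fell on RNA (all genes 22.9% and 22.8%), and 9 of 33 rose and 10 fell on RPFs (24.5% and 22.3%). The share that rose was near that of all genes on both measures. By totals, 10 rose and 11 fell on RNA, and 16 rose and 2 fell on RPFs. Of the risers on RNA, 5 were Kupffer markers, 1 was endothelial and 2 were collagen chains, while the falls included 8 endothelial and 6 stellate markers and 1 Kupffer marker. Differences between the 3 lists were not tested. Leaving out each mouse in turn, 22 of the 28 calls on RNA and 23 of the 26 on RPFs at day 4 held without any 1 mouse, and 18 of 23 and 14 of 19 did at day 10. The RNA calls that did not were those of Col1a2, Eng, Lrat, Marco, Reln and Stab2 at day 4 and of C1qb, Clec4f, Col1a2, Lyve1 and Vsig4 at day 10, Lyve1 through WT mouse 1 alone. On RPFs they were those of Col3a1, Des and Pecam1 at day 4 and of Colec11, Des, Kdr, Rgs5 and Stab1 at day 10.

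Single alleles moved fewer markers, beside mean hepatocyte sums on RNA of 0.793 (B) and 0.685 (M) of the WT mean at day 4 and of 0.447 and 0.526 at day 10. In B livers at day 4, 9 of 33 fell and 0 rose on RNA, where 3.73% of all genes fell and 4.41% rose, and 5 fell and 0 rose on RPFs, where 6.26% fell and 6.21% rose. Of the 9, 5 were Kupffer markers (3 by totals), and by totals 3 rose and 4 fell on RNA and 3 rose and 3 fell on RPFs. In B livers at day 10, 1 of 32 rose and 11 fell on RNA (all genes 8.14% and 7.48%) and 1 of 33 rose and 10 fell on RPFs (13.1% and 12.1%). The falls were mostly those of stellate (5 on each measure) and endothelial (4 and 5) markers. By totals 0 endothelial markers fell on RNA and 1 on RPFs, against 5 and 4 stellate ones, and the splits over all markers were 2 up and 5 down and 5 up and 5 down. In M livers at day 4, 1 of 33 rose and 9 fell on RNA (13.5% and 10.3%) and 10 fell on RPFs (14.7%), and by totals 5 rose and 3 fell, and 1 rose and 3 fell. Without M mouse 2, 13 fell and 0 rose on RNA, and 21 fell on RPFs, where 19% and 31.4% of all genes were called in either direction. In M livers at day 10, 11 of 33 fell on RNA (7.12%, with 8.53% rising) and 12 on RPFs (8.8%), with 0 rising and 0 of the Kupffer markers called by edgeR or DESeq2. On RNA 1 Kupffer marker and on RPFs 0 had an unadjusted p under 0.05. By totals, 6 and 4 fell. These smaller counts depended on single mice. In B livers at day 4 they dropped to 5 on RNA without WT mouse 1, 4 on RNA and 3 on RPFs without WT mouse 3 and 5 and 3 without B mouse 2, and the RPF count was 8 without WT mouse 2. In B livers at day 10 they were 7 on RNA without WT mouse 1, 6 and 7 without WT mouse 3 and 4 and 6 without B mouse 2, and in each of these fits 0 markers rose by edgeR. In M livers at day 4 they were 5 on RNA without WT mouse 1 and 5 and 6 without WT mouse 3, and in M livers at day 10 the RPF count was 7 without WT mouse 3 and 6 without M mouse 1.

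Under scaling by totals several calls no longer passed, and a verb of direction used for them holds on the TMM scale. In BM livers of day 4 these were the falls of Pecam1, Mrc1, Eng, Lyve1, Stab2, Kdr, Col3a1, Col1a2, Lrat, Marco and Timd4 on RNA, while Reln turned to a called rise (0.25, edgeR adjusted p = 0.0502). On RPFs of that day they were those of Adgre1, Cd5l, Cd68, Timd4, Pecam1, Fcgr2b, Mrc1, Eng, Lyve1, Kdr, Col3a1, Col1a2, Des, Rgs5 and Colec11. At day 10 they were those of Clec4f, Dcn, Pecam1 and Fcgr2b on RNA. On RPFs they were those of Des, Rgs5, Lrat, Stab1, Stab2, Colec11, Kdr and Clec4g. In B livers they were Adgre1, Cd5l, Pecam1, Col3a1 and Clec4g on RNA and C1qa and C1qb on RPFs at day 4. At day 10 of the same genotype they were Ptprb, Csf1r, Mrc1, Stab2, Vsig4 and Kdr on RNA and Eng, Stab2, Colec11, Kdr and Clec4g on RPFs. In M livers they were Dcn, Ptprb, Pecam1, Fcgr2b, Lrat and Kdr on RNA and Dcn, Ptprb, Lrat, Ecm1, Col1a2, Stab2 and Kdr on RPFs at day 4. Those of day 10 were Dcn, Colec11, Stab1, Reln and Clec4g on RNA and Dcn, Ptprb, Pecam1, Fcgr2b, Mrc1, Eng, Colec11 and Stab1 on RPFs. DESeq2 did not call 21 of the marker changes that edgeR called. In BM livers these were Marco and Lrat on RNA and Pecam1 and Col3a1 on RPFs at day 4, and C1qb and Vsig4 on RNA at day 10. In B livers they were Adgre1, Cd5l and Pecam1 on RNA at day 4, and Cd5l, Csf1r and Vsig4 on RNA and Clec4g on RPFs at day 10. In M livers they were Pecam1, Marco, Fcgr2b and Kdr on RNA at day 4, and Colec11 on RNA and Pecam1 on RPFs at day 10. Between the days in WT livers they were Cd163 and C1qa on RNA.

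**Figure D2:**
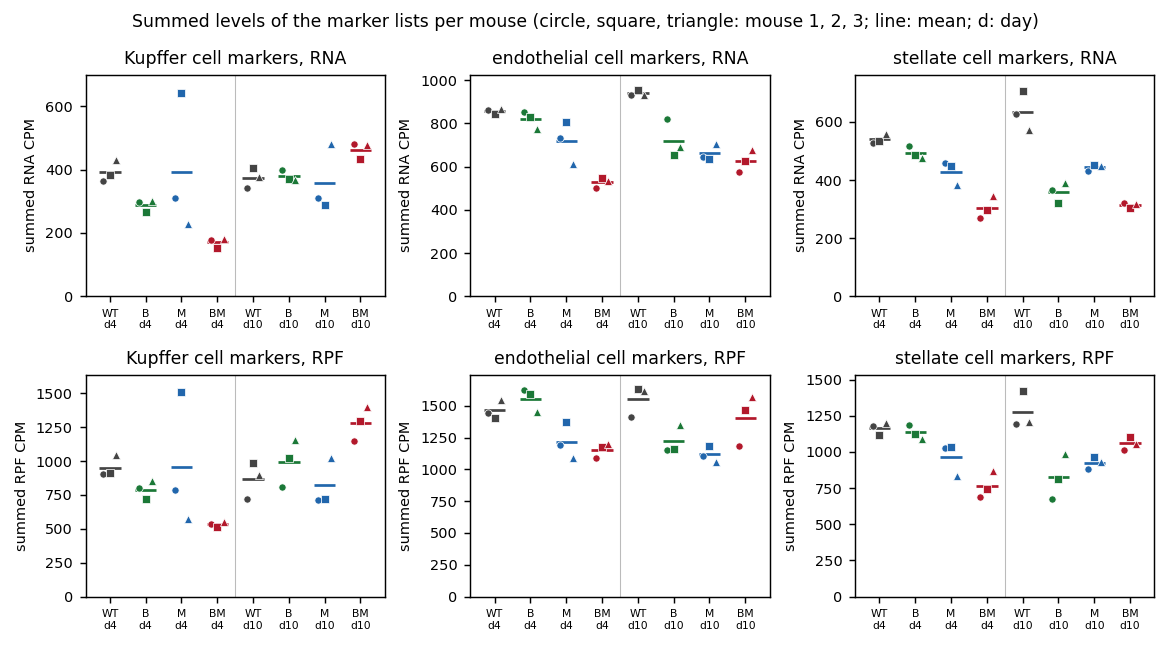
Summed CPM (y axis, from 0) of the Kupffer, endothelial and stellate markers in each mouse, for RNA (top) and RPFs (bottom), by genotype and day (x axis). Symbols are mice 1 to 3 and the line is the group mean. The Kupffer sum on RNA lies at 153 to 181 in BM livers at day 4, below all WT livers of that day (363 to 430), and at 433 to 480 at day 10, above all WT livers (340 to 406).

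The summed levels gave the same outline. The RNA sum of the 12 Kupffer markers was 363, 382 and 429.5 CPM in WT livers of day 4 and 177, 153 and 181 in BM livers. At the later day it was 340.3, 406 and 377 in WT livers and 480.3, 433 and 477 in BM livers. BM livers thus lay below all WT livers at day 4 and above all of them at day 10. The latter rested on Cd5l: without that gene the other 11 summed to 280.5, 327 and 315 in WT and 321, 316 and 342 in BM livers, which overlapped. The Kupffer RPF sum at day 10 was 719.5, 983 and 899 in WT and 1150, 1295 and 1398 in BM livers. There BM livers lay above all WT livers, also with any 1 of the 12 genes left out. The RNA sum of the endothelial markers was 860.1, 843 and 864 in WT and 500.2, 547 and 533 in BM livers at day 4, and 930.1, 954 and 932 against 573, 626 and 679 at day 10. That of the stellate markers was 529, 535 and 558 against 270.1, 297 and 346 at day 4 and 628, 705 and 574 against 320, 302 and 319 at day 10. For both lists BM livers lay below WT livers on both days on the TMM scale, with no overlap. On RPFs at day 10 the gap was smaller: the endothelial sums of 1413, 1632 and 1615 and 1185, 1464 and 1568 overlapped, while the stellate sums of 1196, 1423 and 1206 and 1017, 1106 and 1054 did not, although they overlapped when Reln or Ecm1 was left out of the sum. These sums are descriptions on the TMM scale and were not tested. They were not repeated under scaling by totals. On RNA at day 4, for example, the TMM factors were 0.760 to 0.817 in WT and 1.117 to 1.172 in BM livers. Without such factors BM livers would stand higher beside WT livers, so a separation below WT holds for the TMM scale only.

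**Figure D3:**
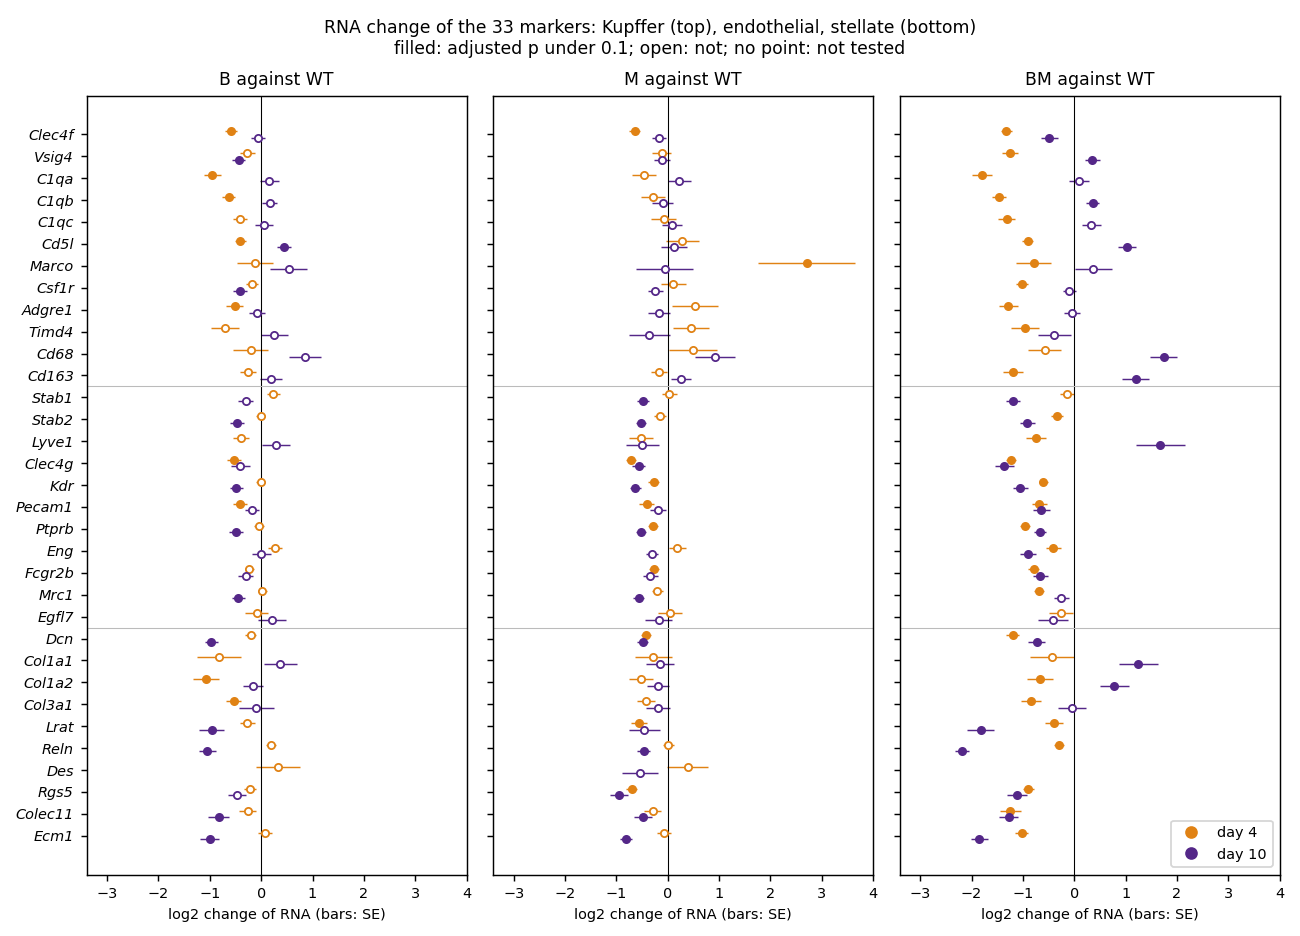
RNA log2FC against WT of the same day (x axis) for each marker (rows) in B, M and BM livers. Orange is day 4 and purple day 10, bars are SE, and filled points have an edgeR adjusted p under 0.1. In BM livers all 12 Kupffer points lie left of 0 at day 4, and 8 of 12 lie right of it at day 10 on the TMM scale, while the stellate and endothelial points other than Lyve1, Col1a1 and Col1a2 lie left of 0 on both days. Under scaling by totals, the filled points of Eng, Lrat, Stab2 and Reln in BM livers and of Ptprb, Fcgr2b and Kdr in M livers, all of day 4, move to the right of 0.

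Among Kupffer markers, 11 of 12 fell on RNA in BM livers at day 4, with a list median of -1.22 (all genes -0.01), and 11 of 12 fell on RPFs with a median of -0.80 (all genes 0.00). Over all genes 20.6% fell on RNA and 24.7% on RPFs. At day 10 the medians were 0.34 and 0.69 (all genes 0.03 on both). By totals, 9 fell on RNA and 7 on RPFs at day 4 with 0 rising, and 7 and 9 rose at day 10 with 0 falling. The medians by totals were -0.68 and -0.38 at day 4 and 0.73 and 1.06 at day 10, and without BM mouse 1 those of day 10 on the TMM scale were 0.16 on RNA and 0.81 on RPFs. Clec4f (chr6:83621524-83633169, GRCm39, minus strand), a galactose-binding lectin found in Kupffer cells of rodents, is the most specific of the list. Its RNA level was 80.2, 88.5 and 95.5 CPM in the WT livers of day 4, 59.4, 51.0 and 65.2 in B, 56.3, 61.6 and 50.0 in M and 34.2, 32.5 and 38.5 in BM livers. All 9 livers with an allele lay below all 3 WT livers, and BM livers lay lowest. The fall was called in each: B (log2FC -0.59, SE 0.11, edgeR adjusted p = 0.00713), M (log2FC -0.65, SE 0.11, edgeR adjusted p = 0.000883) and BM (log2FC -1.33, SE 0.11, edgeR adjusted p = 6.25e-07). On RPFs Clec4f was 276, 284 and 304 CPM in WT and 137, 146 and 152 in BM livers (log2FC -0.96, SE 0.081, edgeR adjusted p = 4.77e-06). At day 10 its RNA was 76.8, 87.7 and 91.6 in WT and 72.3, 50.5 and 60.5 in BM livers (log2FC -0.48, SE 0.16, edgeR adjusted p = 0.0456), the one Kupffer marker to fall then on the TMM scale. Its RPFs of that day, 197, 280 and 267 against 241, 201 and 208 CPM, overlapped (log2FC -0.21, SE 0.18, edgeR adjusted p = 0.395).

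The 3 chains of C1q, which starts the classical complement pathway and is made in the liver mainly by Kupffer cells, are encoded side by side on chromosome 4 (C1qa chr4:136623223-136626161, C1qb chr4:136606009-136613511 and C1qc chr4:136616466-136620376, GRCm39, minus strand). C1qa RNA was 24.1, 18.9 and 20.6 CPM in WT, 11.2, 12.4 and 9.22 in B and 7.25, 4.67 and 6.23 in BM livers at day 4. The 3 groups did not overlap, and the falls were called in B (log2FC -0.95, SE 0.17, edgeR adjusted p = 0.0043) and in BM livers (log2FC -1.80, SE 0.19, edgeR adjusted p = 6.26e-06). C1qb RNA was 25.8, 27.4 and 27.1 in WT and 10.1, 9.34 and 9.62 in BM livers (log2FC -1.46, SE 0.14, edgeR adjusted p = 2.51e-06), and C1qc RNA 26.3, 21.7 and 27.8 and 10.1, 9.17 and 11.0 (log2FC -1.32, SE 0.16, edgeR adjusted p = 1.91e-05). RPFs of the 3 chains fell in BM livers by 0.99 for C1qa, 0.92 for C1qb and 0.81 for C1qc on the log2 scale. At day 10, RPFs of C1qb were 52.6, 64.6 and 57.6 CPM in WT and 78.6, 90.7 and 104 in BM livers (log2FC 0.63, SE 0.16, edgeR adjusted p = 0.0193) and those of C1qc 23.5, 30.6 and 27.8 and 36.7, 51.9 and 49.8 (log2FC 0.75, SE 0.19, edgeR adjusted p = 0.0182). Both were higher in all 3 BM livers than in all 3 WT livers. C1qa RPFs, 40.5, 62.2 and 46.6 and 52.3, 77.9 and 79.8 CPM, overlapped with all mice (log2FC 0.48, SE 0.23, edgeR adjusted p = 0.13) and were called without BM mouse 1 (log2FC 0.66, edgeR adjusted p = 0.00469).

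C1q is assembled from equal numbers of its 3 chains, and the ratios of their levels are given here per codon for RPFs and per length for RNA. C1qb over C1qc was 2.05 ± 0.16 (SD, n = 24 mice, range 1.69 to 2.43) on RPFs, and 1.12 ± 0.14 on RNA. C1qa over C1qb was 0.91 ± 0.082 on RPFs and 0.65 ± 0.14 on RNA. C1qc had the fewest RPFs per codon in each of the 24 mice. The RNA ratio of C1qa to C1qb was 0.84 ± 0.13 in WT livers at day 4 and 0.56 ± 0.035 at day 10 (n = 3 each), where the RPF ratio was 0.91 ± 0.087 and 0.88 ± 0.11. These ratios were not tested.

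The 250 bases upstream of the RefSeq gene start (GRCm38.p6) were read for the 25 markers that the promoter table held, because the C1q chains and other Kupffer markers moved together. The motif searched was GAGGAA, the core of sites for the macrophage ETS factor PU.1, on both strands, and it is printed in capitals in either orientation (GAGGAA or TTCCTC). Of 32851 promoters in the table, 7639 (23.3%) held at least 1 match, as did 6 of the 9 Kupffer, 3 of the 8 endothelial and 1 of the 8 stellate promoters read. Shown 5′ to 3′ are C1qb (chr4:136886201-136886450, minus strand) and C1qc (chr4:136892915-136893164, minus strand), neighbours that moved alike, Cd68 (chr11:69666171-69666420, minus strand), which rose most on RNA in BM livers at day 10, and Clec4f (chr6:83656117-83656366, minus strand), which held no match and fell on RNA at that day.
C1qb: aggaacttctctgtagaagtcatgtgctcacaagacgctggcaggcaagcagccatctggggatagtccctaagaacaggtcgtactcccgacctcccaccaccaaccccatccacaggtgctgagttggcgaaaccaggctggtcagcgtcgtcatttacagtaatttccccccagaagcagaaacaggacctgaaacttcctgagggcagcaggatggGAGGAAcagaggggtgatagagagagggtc
C1qc: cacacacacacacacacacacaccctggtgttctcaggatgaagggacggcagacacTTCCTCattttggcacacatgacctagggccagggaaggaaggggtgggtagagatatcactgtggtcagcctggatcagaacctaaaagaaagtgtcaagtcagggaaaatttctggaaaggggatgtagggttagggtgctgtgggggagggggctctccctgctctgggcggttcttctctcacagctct
Cd68: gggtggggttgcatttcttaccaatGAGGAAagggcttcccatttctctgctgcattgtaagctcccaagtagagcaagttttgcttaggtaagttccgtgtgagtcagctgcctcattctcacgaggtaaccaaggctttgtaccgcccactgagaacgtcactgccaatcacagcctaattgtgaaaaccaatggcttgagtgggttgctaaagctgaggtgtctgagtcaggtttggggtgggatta
Clec4f: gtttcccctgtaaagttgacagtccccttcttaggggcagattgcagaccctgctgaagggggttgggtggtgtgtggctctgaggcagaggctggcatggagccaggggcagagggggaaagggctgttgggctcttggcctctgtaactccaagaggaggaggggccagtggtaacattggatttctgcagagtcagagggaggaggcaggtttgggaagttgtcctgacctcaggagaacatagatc
Among the Kupffer promoters read but not shown, Cd163 held 0 matches and rose on RNA in BM livers at day 10. Marco held 1 match and was not called on RNA then. Vsig4 held 2 and Cd5l 1, and both rose, while Timd4 held 0 and was not called. Whether matches go with direction was not tested. A match is a run of letters and not evidence of binding, and its absence in this window says nothing of the factor.

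Cd163 and Cd68 had the largest differences between the days among the Kupffer markers of BM livers, 2.39 and 2.31 on RNA. Cd163 (chr6:124281606-124307560, GRCm39, plus strand), which takes up haemoglobin bound to haptoglobin, had 15.1, 16.0 and 16.8 RNA CPM in WT and 8.67, 5.88 and 6.23 in BM livers at day 4 (log2FC -1.19, SE 0.19, edgeR adjusted p = 0.000204). In livers of day 10 it had 10.4, 8.02 and 11.54 and 15.1, 26.6 and 27.3 (log2FC 1.20, SE 0.26, edgeR adjusted p = 0.00742). Its RPFs at day 10 were 40.8, 40.8 and 51.2 CPM in WT, 45.0, 57.0 and 49.3 in B, 41.4, 49.2 and 40.8 in M and 63.6, 176 and 194 in BM livers (log2FC 1.70, SE 0.38, edgeR adjusted p = 0.012). All 3 BM livers lay above every other liver of that day, mouse 1 only just, and without mouse 1 the log2FC was 2.06. Cd68 RNA was low at 2.90, 2.74 and 3.19 CPM in WT livers of day 10 and 9.74, 7.80 and 12.2 in BM livers (log2FC 1.74, SE 0.26, edgeR adjusted p = 0.00137), with RPFs of 14.5, 20.7 and 17.4 and 39.2, 44.7 and 54.8 (log2FC 1.39, SE 0.20, edgeR adjusted p = 0.0021). At day 4 its RPFs had fallen (log2FC -0.68, SE 0.13, edgeR adjusted p = 0.00149), with RNA levels of 2.90, 4.83 and 2.64 in WT and 2.05, 2.42 and 2.49 in BM livers (log2FC -0.58, SE 0.32, edgeR adjusted p = 0.184). Cd68 had as few as 7 RNA counts in a library.

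Marco, a scavenger receptor with a collagenous stalk, rested on single mice. Its RNA was 3.34, 3.51 and 4.08 CPM in WT, 4.94, 60.9 and 1.11 in M and 2.05, 1.21 and 3.03 in BM livers at day 4. M mouse 2 carried the call in M livers (log2FC 2.71, SE 0.95, edgeR adjusted p = 0.0656), and without it the log2FC was -0.20 (edgeR adjusted p = 0.822). RPFs of that mouse were 139 CPM against 11.0 and 3.81 in its group, so the level was high in both libraries of the liver. The same mouse had 118 RNA CPM of Adgre1 (the macrophage antigen F4/80) against 29.1 and 22.2, 142 of Cd5l against 61.6 and 36.9, and 61.6 of Clec4f against 56.3 and 50.0. Clec4f in it lay below the WT range, whereas Adgre1, Cd5l and Marco lay above it. Without it, Adgre1 fell on RNA in M livers (log2FC -0.64, edgeR adjusted p = 0.0459), and the Kupffer list had 5 falls on RNA and 7 on RPFs, with medians of -0.41 and -0.40. Timd4, a receptor for phosphatidylserine on dying cells, had 5.79, 7.46 and 6.24 RNA CPM in WT and 3.15, 2.42 and 4.45 in BM livers at day 4 (log2FC -0.96, SE 0.27, edgeR adjusted p = 0.0145), and at day 10 4.76, 4.50 and 6.63 and 2.78, 5.50 and 3.90 (log2FC -0.39, SE 0.32, edgeR adjusted p = 0.366). On RPFs of day 10 Timd4 was not called either (-0.62).

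Cd5l, a secreted protein of tissue macrophages also called AIM, fell at day 4 and rose at day 10. Its RNA was 63.2, 66.5 and 71.5 CPM in WT and 37.4, 31.1 and 38.3 in BM livers at day 4 (log2FC -0.91, SE 0.11, edgeR adjusted p = 2.27e-05). At day 10 it was 59.8, 79.6 and 62.4 in WT, 92.1, 94.2 and 87.7 in B and 159.8, 117 and 135 in BM livers. All B and all BM livers lay above all WT livers, and both rises were called (B log2FC 0.44, SE 0.14, edgeR adjusted p = 0.0728, BM log2FC 1.02, SE 0.17, edgeR adjusted p = 0.00227). Cd5l was the one marker to rise in B livers at day 10, on RNA and on RPFs, and its RNA call there was lost under DESeq2 (adjusted p = 0.105) and without WT mouse 1, WT mouse 3, B mouse 1 or B mouse 2. The RPF call was lost without WT mouse 1, WT mouse 3, B mouse 2 or B mouse 3. The summed level of 8 infiltrating monocyte and neutrophil genes was also higher on average in those B livers. On RPFs it was 12.4, 31.3 and 41.0 CPM against 7.43, 15.75 and 8.89 in WT, and on RNA 12.1, 17.1 and 23.98 against 6.62, 12.3 and 9.08. B mouse 1 overlapped WT mice on both. Of these genes S100a9 was called by edgeR, on RNA (1.86) and on RPFs (1.90), and on RPFs DESeq2 called 2 of 5 tested and totals 4. The part of these cells in the Cd5l levels was not tested. Vsig4 RNA was 38.5, 41.1 and 51.8 in WT and 19.9, 15.4 and 19.6 in BM livers at day 4 (log2FC -1.25, SE 0.15, edgeR adjusted p = 1.64e-05), and 44.5, 46.8 and 41.7 and 48.1, 58.9 and 63.6 at day 10 (log2FC 0.35, SE 0.14, edgeR adjusted p = 0.0852). Its RPFs of day 10 were 21.1, 28.2 and 23.4 and 34.3, 49.6 and 50.8 CPM (log2FC 0.88, SE 0.20, edgeR adjusted p = 0.0134). BM livers were thus below WT at day 4 and above WT at day 10, without overlap on either day.

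Csf1r and Adgre1 fell in BM livers at day 4 and were not called at day 10. Csf1r, the receptor through which macrophages receive their survival signal, had 44.1, 49.4 and 53.3 RNA CPM in WT and 23.3, 25.4 and 23.5 in BM livers at day 4 (log2FC -1.02, SE 0.12, edgeR adjusted p = 1.19e-05). At day 10 the levels were 50.3, 59.9 and 60.2 and 50.1, 54.8 and 55.1 (log2FC -0.10, SE 0.13, edgeR adjusted p = 0.592), and in B livers 39.4, 41.7 and 46.9 (log2FC -0.41, SE 0.14, edgeR adjusted p = 0.0877). That call in B livers was lost under DESeq2, under totals and without WT mouse 2, WT mouse 3, B mouse 1 or B mouse 2. Adgre1 had 33.2, 36.2 and 52.1 in WT and 18.6, 13.0 and 17.99 in BM livers at day 4 (log2FC -1.29, SE 0.18, edgeR adjusted p = 9.12e-05) and 29.4, 38.7 and 33.1 and 30.6, 33.02 and 35.1 at day 10 (log2FC -0.05, SE 0.15, edgeR adjusted p = 0.833). Of the 12 Kupffer markers, 5 therefore rose on RNA at day 10 (Cd68, Cd163, Cd5l, C1qb and Vsig4), and 6 on RPFs, C1qc in addition. Over all genes 22.9% rose on RNA and 24.5% on RPFs. DESeq2 did not call C1qb and Vsig4 on RNA. Without BM mouse 1 the counts were 5 up and 1 down on RNA and 9 up and 1 down on RPFs, where 57.1% and 66.3% of all genes were called. The difference between the days was tested itself: the BM effect was higher at day 10 than at day 4 for 10 of 12 Kupffer markers on RNA and 10 on RPFs, where 13.4% and 17.2% of all genes were called in that direction. Marco and Timd4 did not pass on either measure, with differences of 1.16 and 0.57 on RNA.

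**Figure D4:**
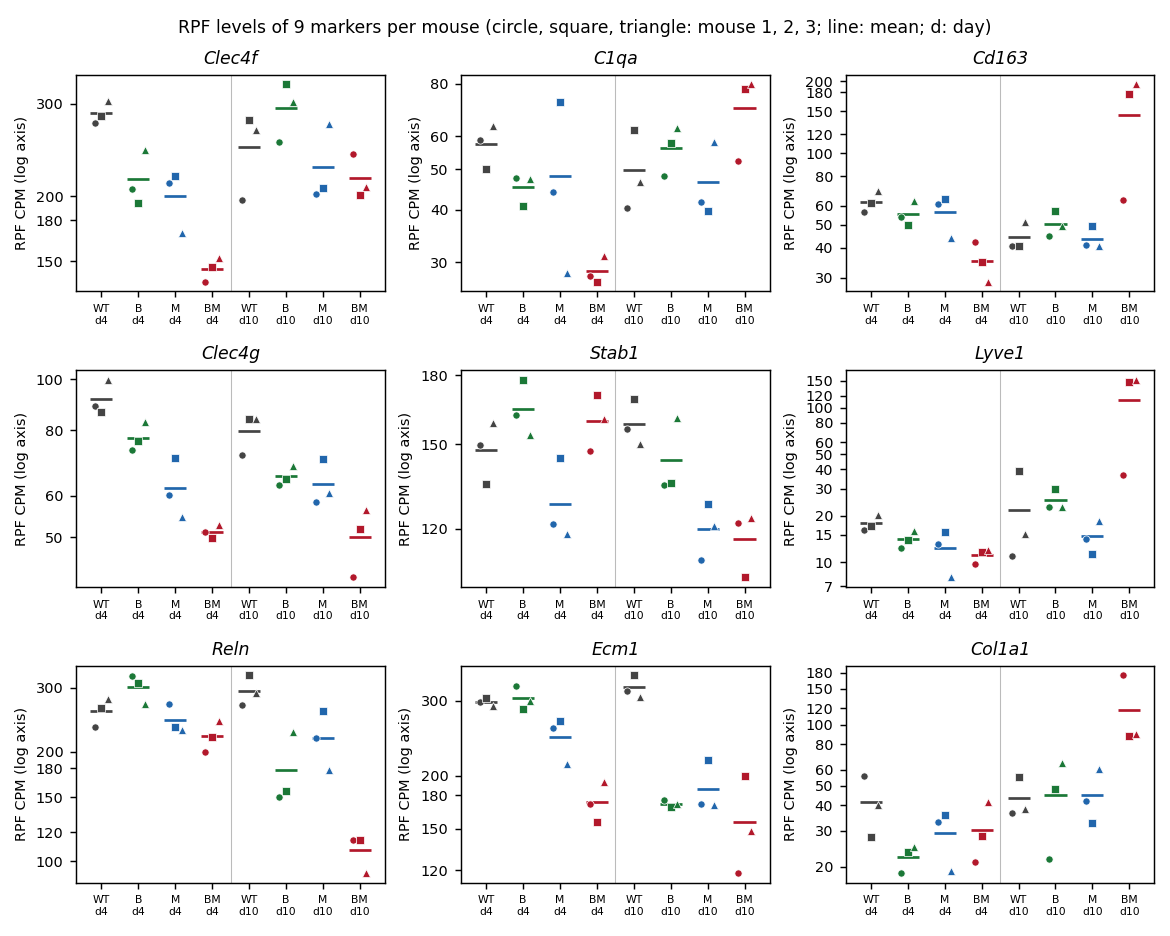
RPF CPM (y axis, log scale) of 9 markers in each mouse by genotype and day (x axis), with Kupffer markers in the top row, endothelial markers in the middle and stellate markers at the bottom. Symbols are mice 1 to 3 and the line is the group mean. BM mouse 1 of day 10 (circle) lies below the other BM mice for Cd163 and Lyve1 and above them for Col1a1, and all 3 BM mice of day 10 have 92.9 to 114 CPM of Reln against 268 to 324 in WT.

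Of the 11 endothelial markers, 9 fell and 0 rose on RNA in BM livers at day 4 on the TMM scale (list median -0.68), and 8 fell and 1 rose at day 10 (median -0.67). On RPFs 8 fell and 0 rose at day 4, and 4 fell and 1 rose at day 10 (medians -0.39 and -0.31). Over all genes, 20.6% fell and 21.3% rose on RNA at day 4, and 22.8% and 22.9% at day 10. On RPFs the shares were 24.7% and 26.2% at day 4 and 22.3% and 24.5% at day 10. Scaling by totals changed these splits to 3 down and 1 up on RNA and 2 down and 3 up on RPFs at day 4. At day 10 they became 6 down and 1 up on RNA and 0 down and 4 up on RPFs. The medians by totals were -0.14 and -0.27 on RNA and 0.03 and 0.06 on RPFs. Most of the falls on RNA at day 4 and the falls on RPFs thus depended on the scaling. Without BM mouse 1, 5 fell and 4 rose on RPFs at day 10, where 66.3% of all genes were called. Clec4g (chr8:3757064-3770671, GRCm39, minus strand), a lectin of sinusoidal endothelium also called LSECtin, was the most affected at day 4. Its RNA was 59.5, 57.1 and 56.9 CPM in WT, 32.4, 39.4 and 48.5 in B, 33.6, 37.2 and 34.4 in M and 24.3, 24.2 and 25.1 in BM livers. All 9 livers with an allele lay below all WT livers, and the falls were called in B (log2FC -0.53, SE 0.13, edgeR adjusted p = 0.033), M (log2FC -0.71, SE 0.099, edgeR adjusted p = 0.000247) and BM livers (log2FC -1.23, SE 0.10, edgeR adjusted p = 7.01e-07), the call in B livers being lost without WT mouse 1 or B mouse 2. At day 10 Clec4g RNA was 58.6, 48.7 and 60.2 in WT, 33.6, 40.2 and 38.9 in M and 24.8, 17.0 and 23.4 in BM livers, with calls in M (log2FC -0.57, SE 0.12, edgeR adjusted p = 0.0162) and BM (log2FC -1.36, SE 0.18, edgeR adjusted p = 0.000691). Its RPF log2FC was -0.82 at day 4 and -0.69 at day 10 in BM livers.

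Stab1 and Stab2, the stabilins through which sinusoidal endothelium clears hyaluronan and oxidized lipoproteins, fell mainly at day 10. Stab1 RNA was 46.1, 38.9 and 41.3 CPM in WT and 31.9, 44.6 and 37.4 in BM livers at day 4, which overlapped (log2FC -0.15, SE 0.13, edgeR adjusted p = 0.417). At day 10 it was 55.7, 60.5 and 52.1 in WT, 36.3, 44.0 and 39.6 in M and 27.2, 23.2 and 23.1 in BM livers, and M and BM livers lay below all WT livers (BM log2FC -1.20, SE 0.14, edgeR adjusted p = 0.000399). The BM effect on Stab1 differed between the days (difference -1.05, edgeR adjusted p = 0.00193). Stab2 RNA was 117, 105 and 108 in WT, 86.9, 66.3 and 83.9 in B, 79.9, 74.2 and 74.5 in M and 69.0, 56.0 and 50.7 in BM livers at day 10. WT livers were above all others, and each fall was called: B -0.47, M -0.53 and BM -0.91. The B call was lost under totals (-0.25) and without WT mouse 1, WT mouse 3 or B mouse 2. At day 4 the fall of Stab2 in BM livers (-0.33) turned to 0.21 under scaling by totals. Stab1 RPFs of day 10 were 156, 169 and 150 in WT and 122, 106 and 123 in BM livers (log2FC -0.45, SE 0.14, edgeR adjusted p = 0.0404).

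Lyve1, a hyaluronan receptor of sinusoidal and lymphatic endothelium that some macrophages also carry, was the one endothelial marker that rose in BM livers at day 10. At day 4 its RNA was 15.1, 16.7 and 18.5 CPM in WT and 7.25, 10.7 and 12.1 in BM livers (log2FC -0.74, SE 0.20, edgeR adjusted p = 0.00922). At day 10 it was 15.9, 37.4 and 17.4 in WT, 26.7, 31.1 and 28.8 in B, 15.3, 12.0 and 23.0 in M and 29.2, 97.0 and 103 in BM livers (log2FC 1.67, SE 0.48, edgeR adjusted p = 0.0245). BM mice 2 and 3 were far above all others, while BM mouse 1 was lower than WT mouse 2, the high one of the WT mice, and above the other two. RPFs showed the same split, with 11.0, 38.9 and 15.3 in WT and 37.0, 147 and 152 in BM livers (log2FC 2.36, SE 0.62, edgeR adjusted p = 0.0216), and without BM mouse 1 the log2FC was 2.05 on RNA and 2.78 on RPFs. As for Cd163, BM mouse 1 was the lowest of its group.

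Mrc1 and Fcgr2b, receptors that both sinusoidal endothelium and macrophages can carry, fell in BM livers at day 4. Mrc1, the mannose receptor, had 122, 119 and 124 RNA CPM in WT and 68.6, 77.3 and 79.8 in BM livers at day 4 (log2FC -0.69, SE 0.096, edgeR adjusted p = 7.01e-05), and 134, 141 and 127 and 95.2, 109.8 and 133 at day 10 (log2FC -0.25, SE 0.15, edgeR adjusted p = 0.204). In B and M livers of day 10 it had 103, 90.4 and 101 and 91.2, 84.8 and 94.4, below all WT livers, and both falls were called (-0.44 and -0.57), that in B livers not under totals (-0.22) nor without any 1 WT mouse or B mouse 2. Fcgr2b RNA fell in BM livers at day 10, from 80.1, 62.0 and 68.0 CPM in WT to 46.3, 41.7 and 45.2 (log2FC -0.66, SE 0.14, edgeR adjusted p = 0.00666). Its RPFs were not called, at 53.8, 48.1 and 54.1 in WT and 49.6, 62.1 and 62.6 in BM livers (log2FC 0.15, SE 0.15, edgeR adjusted p = 0.478). Without BM mouse 1, RPFs of Fcgr2b and Mrc1 were called higher (log2FC 0.25 and 0.31).

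Kdr, the main receptor for VEGF-A, was lower on RNA in all 3 genotypes at day 10. Its levels were 122, 137 and 124 CPM in WT, 100.4, 84.1 and 89.1 in B, 80.4, 78.8 and 87.7 in M and 63.0, 53.9 and 69.1 in BM livers. The groups with an allele lay below all WT livers, with log2FC of -0.48 in B, -0.63 in M and -1.05 in BM livers (edgeR adjusted p = 0.0348, 0.00343 and 0.000735), and the call in B livers was lost under totals (-0.27) and without WT mouse 3 or B mouse 2. At day 4 the levels were 111, 109 and 118 in WT and 75.4, 73.0 and 73.0 in BM livers (log2FC -0.61, SE 0.09, edgeR adjusted p = 0.000125). Ptprb, the endothelial phosphatase VE-PTP, had 250.3, 253 and 253 RNA CPM in WT and 122, 124 and 144 in BM livers at day 4 (log2FC -0.95, SE 0.097, edgeR adjusted p = 4.29e-06), and 272, 275 and 295 and 164, 180 and 188 at day 10 (log2FC -0.67, SE 0.12, edgeR adjusted p = 0.00332). All BM livers lay below all WT livers on both days, whereas its RPFs of day 10, 183, 209.9 and 220.3 and 139, 197 and 215 CPM, overlapped (log2FC -0.17, SE 0.20, edgeR adjusted p = 0.533). Eng RNA fell in BM livers at day 4 (-0.41, turned to 0.14 under scaling by totals), and at day 10 it was 39.7, 42.7 and 37.6 in WT and 25.4, 19.0 and 19.7 in BM livers (log2FC -0.90, SE 0.16, edgeR adjusted p = 0.00296). Pecam1 RNA was 31.3, 38.15 and 36.6 and 23.7, 25.0 and 19.5 (log2FC -0.64, SE 0.16, edgeR adjusted p = 0.0126), and its RPFs, 26.8, 35.1 and 28.0 and 27.3, 40.6 and 34.6, were not called (log2FC 0.18, SE 0.20, edgeR adjusted p = 0.503). Egfl7 was not called in any comparison, with RNA log2FC of -0.26 and -0.42 in BM livers and as few as 12 RPF counts in a library.

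Stellate markers fell in BM livers at day 4 in 8 of 9 tested on RNA (list median -0.85) and in 7 of 10 on RPFs (median -0.64), with 0 rising on either. At day 10, 6 of 9 fell and 2 rose on RNA (median -1.12), and 6 of 10 fell and 2 rose on RPFs (median -0.63). Over all genes, 20.6% fell on RNA and 24.7% on RPFs at day 4. At day 10, 22.8% fell and 22.9% rose on RNA, and 22.3% fell and 24.5% rose on RPFs. The share of stellate markers that rose was thus near the background on both measures. The medians by totals were -0.30 and -0.21 at day 4 and -0.73 and -0.27 at day 10, and without BM mouse 1 the RPF median of day 10 was -0.45. The 2 that rose were the type I collagen chains. By totals, 4 fell and 1 rose on RNA and 2 fell and 1 rose on RPFs at day 4, and 5 fell and 2 rose on RNA and 2 fell and 3 rose on RPFs at day 10. Without BM mouse 1, 7 fell and 1 rose on RNA at day 10, where 57.1% of all genes were called. Reln (chr5:22089452-22549700, GRCm39, minus strand), the secreted glycoprotein reelin, showed the largest fall on RNA among the 33 markers at day 10. Its RNA was 151, 143 and 130.4 CPM in WT, 73.5, 52.1 and 79.1 in B, 114, 108 and 85.5 in M and 34.2, 32.1 and 27.3 in BM livers. BM livers lay below B livers, B livers below M livers, and M livers below WT livers, with no overlap between neighbours. Each was called against WT: B (log2FC -1.05, SE 0.17, edgeR adjusted p = 0.0021), M (log2FC -0.47, SE 0.12, edgeR adjusted p = 0.0371) and BM (log2FC -2.18, SE 0.14, edgeR adjusted p = 2.67e-05), the M call being lost without WT mouse 1. Its RPFs were 268, 325 and 290.1 in WT and 114, 114 and 92.9 in BM livers (log2FC -1.47, SE 0.16, edgeR adjusted p = 0.00084). At day 4 Reln RNA was 101, 103 and 111 in WT, 129, 127 and 104 in B and 76.2, 88.9 and 90.7 in BM livers (log2FC -0.30, SE 0.10, edgeR adjusted p = 0.0339, and 0.25 by totals, where it was called as a rise, edgeR adjusted p = 0.0502), and the effect differed between the days in BM (-1.89) and in B livers (-1.25). In WT livers Reln was also the one marker that rose from day 4 to day 10 (log2FC 0.43, SE 0.10, edgeR adjusted p = 0.065).

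Ecm1 (chr3:95640761-95646943, GRCm39, minus strand) was also lower in all 3 genotypes at day 10. Its RNA was 53.2, 56.7 and 51.8 CPM in WT, 35.2, 24.8 and 20.8 in B, 33.4, 29.0 and 29.6 in M and 17.9, 13.5 and 13.3 in BM livers. All livers with an allele lay below all WT livers, and BM livers below all B and M livers. The falls were called in B (log2FC -1.01, SE 0.18, edgeR adjusted p = 0.00393), M (log2FC -0.81, SE 0.11, edgeR adjusted p = 0.00129) and BM livers (log2FC -1.85, SE 0.16, edgeR adjusted p = 9.77e-05). At day 4 Ecm1 was 39.0, 48.3 and 38.6 in WT, 47.2, 49.5 and 36.2 in B and 20.8, 18.3 and 22.6 in BM livers, and the fall in BM livers was called (log2FC -1.03, SE 0.13, edgeR adjusted p = 4.03e-05). The effect at day 10 minus that at day 4 was called in all 3: -1.09 in B, -0.74 in M and -0.83 in BM livers, that of M being lost when any of 10 of the 12 mice was left out. RPFs of day 10 were 317, 344 and 307 in WT, 175, 169 and 171 in B, 171, 218 and 170.4 in M and 118, 199 and 148 in BM livers, so that the 3 genotypes lay together and below WT.

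Lrat, the enzyme that esterifies retinol for storage in stellate cells, was more scattered. Its RNA at day 10 was 43.1, 83.3 and 56.2 CPM in WT, 41.0, 29.3 and 23.98 in B, 29.2, 68.0 and 35.8 in M and 17.9, 20.0 and 13.8 in BM livers. B and BM livers lay below all WT livers (B log2FC -0.96, SE 0.24, edgeR adjusted p = 0.0269, BM log2FC -1.83, SE 0.26, edgeR adjusted p = 0.001, the B call being lost without B mouse 2), whereas M livers overlapped with WT (log2FC -0.46, SE 0.30, edgeR adjusted p = 0.381). At day 4 Lrat fell in M (log2FC -0.56, SE 0.15, edgeR adjusted p = 0.0233) and in BM livers (log2FC -0.40, SE 0.17, edgeR adjusted p = 0.0935, with the sign turned to 0.15 under scaling by totals). Rgs5, a regulator of G-protein signalling in pericytes, was low in both genotypes that carry the MYC transgene. Its RNA at day 4 was 53.2, 56.2 and 58.8 in WT, 49.1, 41.4 and 54.0 in B, 33.6, 33.5 and 36.0 in M and 28.7, 30.8 and 31.0 in BM livers, and at day 10 60.03, 85.7 and 53.0, 47.3, 44.7 and 51.5, 36.3, 36.2 and 31.1 and 32.2, 32.8 and 27.0. M and BM livers lay below all WT and all B livers on both days. The calls were -0.71 in M and -0.89 in BM livers at day 4 and -0.95 and -1.12 at day 10, against -0.22 and -0.47 in B livers, which did not pass.

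Colec11, a soluble collectin of the lectin complement pathway, had 16.0, 23.3 and 17.5 RNA CPM in WT and 7.10, 6.57 and 10.3 in BM livers at day 4 (log2FC -1.25, SE 0.21, edgeR adjusted p = 0.000353), and 19.7, 24.7 and 17.9 and 8.74, 8.48 and 8.57 at day 10 (log2FC -1.28, SE 0.19, edgeR adjusted p = 0.0012). BM livers lay below all WT livers on both days. Dcn RNA was 225, 211 and 245 in WT and 94.3, 83.0 and 118 in BM livers at day 4 (log2FC -1.20, SE 0.12, edgeR adjusted p = 5.46e-06). At day 10 it was 254, 239.5 and 216 in WT, 119.6, 116 and 125 in B, 158, 159 and 187 in M and 115, 146 and 168 in BM livers, and all 3 genotypes lay below WT (B log2FC -0.97, SE 0.13, edgeR adjusted p = 0.000829, M log2FC -0.49, SE 0.11, edgeR adjusted p = 0.0211, BM log2FC -0.74, SE 0.16, edgeR adjusted p = 0.00745), with the M call lost without M mouse 1. RPFs of Dcn in BM livers of day 10 were 273, 459 and 449.9 against 381, 409.7 and 383 in WT: mouse 1 was below all WT livers and mice 2 and 3 above them (log2FC 0.00, SE 0.22, edgeR adjusted p = 0.996, and 0.21 without mouse 1, edgeR adjusted p = 0.16). Des RPFs were 4.29, 4.71 and 3.004 in WT and 2.15, 2.25 and 0.826 in BM livers at day 10 (log2FC -1.20, SE 0.39, edgeR adjusted p = 0.0433), from as few as 10 counts in a library.

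The type I collagen chains were the stellate markers that rose in BM livers at day 10. Col1a1 RNA was 5.18, 5.28 and 5.89 CPM in WT and 21.1, 8.48 and 8.83 in BM livers (log2FC 1.25, SE 0.38, edgeR adjusted p = 0.0309), and Col1a2 RNA 10.6, 12.5 and 10.6 and 27.6, 12.6 and 17.4 (log2FC 0.78, SE 0.29, edgeR adjusted p = 0.0617). Their RPFs were 36.6, 55.2 and 38.6 against 175, 87.8 and 90.3 for Col1a1 (log2FC 1.42, SE 0.30, edgeR adjusted p = 0.00947) and 69.9, 95.5 and 64.5 against 174, 131 and 134 for Col1a2 (log2FC 0.92, SE 0.20, edgeR adjusted p = 0.0103). All BM livers were above all WT livers, with mouse 1 the highest on each measure. Without mouse 1 the log2FC of Col1a1 was 0.66 on RNA and 1.03 on RPFs, and that of Col1a2 was 0.40 on RNA, which did not pass (edgeR adjusted p = 0.143), and 0.78 on RPFs. Col3a1, the chain of type III collagen, was not called, with RNA of 28.0, 52.0 and 29.95 in WT and 45.5, 28.0 and 33.5 in BM livers (log2FC -0.04, SE 0.27, edgeR adjusted p = 0.913). Per codon, the RPF ratio of Col3a1 to Col1a1 was 1.59 ± 0.13 in WT and 0.80 ± 0.14 in BM livers of day 10 (SD, n = 3 each), with no overlap, and was not tested. Type I collagen holds 2 chains of Col1a1 for each chain of Col1a2, yet ribosomes per codon stood at 0.60 ± 0.11 for Col1a1 over Col1a2 over all 24 mice. At day 4 the collagens had calls in B livers: Col1a2 RNA was 12.0, 7.02 and 10.6 in WT and 4.26, 4.14 and 5.71 in B livers (log2FC -1.07, SE 0.26, edgeR adjusted p = 0.0287), and RPFs of Col1a1 were 55.9, 27.9 and 40.4 and 18.7, 23.5 and 24.8 (log2FC -0.91, SE 0.21, edgeR adjusted p = 0.0227). The Col1a2 RNA call was lost without WT mouse 1, WT mouse 3 or B mouse 2, and that of Col3a1 RNA (-0.54) without WT mouse 1, WT mouse 3, B mouse 1 or B mouse 3. Col1a1 RNA, 4.90, 3.07 and 3.12 CPM in WT and 1.01, 3.73 and 1.54 in B livers, overlapped.

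TE compares the change of RPFs with that of RNA. The list medians of the TE change were 0.40 (Kupffer), 0.28 (endothelial) and 0.23 (stellate) in BM livers at day 4 (all genes 0.01) and 0.27, 0.57 and 0.64 at day 10 (all genes 0.03). Gene by gene, 1 of the 32 markers tested passed the interaction test at day 4, where 2.23% of all genes were called, and 0 passed at day 10, where 0.259% were called. That gene was C1qa (log2FC 0.80, SE 0.21, edgeR adjusted p = 0.0896), and the call was lost when any mouse of the comparison but BM mouse 1 was left out. Because RNA and RPFs came from the same liver, the test was repeated with the mouse as a block. It then called 8 markers at day 4 (C1qa, Adgre1 at 0.63, Colec11 at 0.60, C1qb at 0.53, Dcn at 0.45, Clec4g at 0.41, Clec4f at 0.35 and Mrc1 at 0.32), where the blocked fit called 6.17% of all genes. At day 10 the block called another set of 8 in which Dcn recurred (Lrat at 0.82, Pecam1 at 0.78, Fcgr2b at 0.77, Stab1 at 0.72, Reln at 0.70, Dcn at 0.68, Lyve1 at 0.67 and Kdr at 0.57), where it called 5.21% of all genes. Without BM mouse 1, 14 of 33 markers had a higher TE at day 10 without the block, Ecm1 at 1.10 and Pecam1 at 0.97 among them, where 21.5% of all genes were called. Of the markers at day 10, 9 had an unadjusted p under 0.05 in BM livers, and DESeq2 called 2. In B and M livers 0 markers passed on TE at either day by edgeR or DESeq2 (0.0488% and 0.971% of all genes at day 4, 0.0564% and 0% at day 10). An unadjusted p under 0.05 was found for 5 markers in B livers at day 4 and for 0 in the other 3 comparisons, and with the block 1 marker was called, Adgre1 in M livers at day 4 (0.46), where the blocked fit called 2.65% of all genes.

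Within WT livers the markers differed little between the days: 1 rose and 2 fell on RNA, where 2.32% of all genes were called, and 1 fell on RPFs, where 4.44% were called. By totals 10 rose and 0 fell on RNA. Cd163 fell on both measures (RNA log2FC -0.69, SE 0.18, edgeR adjusted p = 0.0935, RPFs log2FC -0.50, SE 0.12, edgeR adjusted p = 0.0573), and C1qa fell on RNA (log2FC -0.63, SE 0.17, edgeR adjusted p = 0.0921). The effect of the B genotype was higher at day 10 than at day 4 for 3 Kupffer markers on RNA and 4 on RPFs, and lower for 5 and 8 endothelial or stellate markers, where 9.31% and 17.2% of all genes were called in either direction. That of M differed between the days for 1 marker on RNA (Ecm1, 1.2% of all genes) and for 0 on RPFs by edgeR (1.18%), with 1 at an unadjusted p under 0.05 and 1 by DESeq2. The M comparison holds M mouse 2 of day 4, and without it 0 markers of the 3 lists passed on either measure. Leaving out single mice lost each WT call as well: the RNA count was 0 without WT mouse 1 or 3 of either day and 1 without WT mouse 2 of day 4, and the RPF count 0 without WT mouse 2 or 3 of day 4 or WT mouse 1 of day 10. The B difference was called for 13 markers on RNA without B mouse 1 of day 10 and for 7 on RPFs without WT mouse 3 of day 4, and that of Ecm1 in M livers was lost when any of 10 of the 12 mice was left out.

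Further genes of the same cell types were read from lists set up with the markers. Of 12 other macrophage genes tested in BM livers at day 4, 10 fell and 1 rose on RNA, where 20.6% of all genes fell and 21.3% rose. Slc11a1, a metal transporter of phagosomes, had 6.01, 7.68 and 10.8 CPM in WT and 2.05, 3.11 and 3.38 in BM livers (log2FC -1.51, SE 0.29, edgeR adjusted p = 0.00111), and Ctss, the lysosomal protease cathepsin S, 44.8, 38.4 and 54.9 CPM in WT and 15.6, 14.7 and 22.6 in BM livers (log2FC -1.38, SE 0.17, edgeR adjusted p = 3.18e-05). Hpgd, the prostaglandin-degrading enzyme, was the one that rose (0.73). At day 10, 5 of 13 rose and 3 fell, where 22.9% of all genes rose and 22.8% fell, so the share that fell was near the background. Ctss rose, with 36.0, 46.4 and 35.8 CPM in WT and 59.4, 58.2 and 76.6 in BM livers (log2FC 0.71, SE 0.17, edgeR adjusted p = 0.0113), and Spic, a transcription factor of haem-handling macrophages, rose by 1.20 from low counts. The falls were the antigen presentation genes Cd74, with 35.0, 42.5 and 46.4 CPM in WT and 14.7, 9.17 and 4.42 in BM livers (log2FC -2.10, SE 0.33, edgeR adjusted p = 0.00165), and H2-Aa (-1.97), and Lyz2 (-0.46, not called by totals at -0.06). Cd74 and H2-Aa were lower in all 3 BM livers than in all WT livers, as the rule for naming them required.

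Of 16 other endothelial genes, 12 fell and 1 rose on RNA in BM livers at day 4, and 12 fell and 0 rose at day 10. The shares of all genes on RNA were 20.6% falling and 21.3% rising at day 4 and 22.8% and 22.9% at day 10. They also stand beside the RNA counts of stellate and matrix genes below. Plvap, the protein of fenestral diaphragms, had 20.5, 23.5 and 22.6 CPM in WT and 7.73, 11.8 and 10.7 in BM livers (log2FC -1.14, SE 0.17, edgeR adjusted p = 0.000152) at day 4, and the receptor kinases Tek and Tie1 fell by 1.00 and 0.87 on the log2 scale, the latter not called by totals (-0.32). Bmp6, through which endothelium signals iron load to hepatocytes, rose (0.83). At day 10 Nrp1, a co-receptor for VEGF, had 106, 99.8 and 98.5 CPM in WT and 46.3, 41.3 and 41.0 in BM livers (log2FC -1.24, SE 0.12, edgeR adjusted p = 0.000173), and Aqp1 (-1.30) and Dnase1l3 (-1.20) fell as well. Of 3 endothelial Wnt ligands and enhancers (Wnt2, Wnt9b and Rspo3), Rspo3 passed the filter on RNA. It fell at day 4 (-0.77, not called by totals at -0.23) and at day 10, with 9.73, 10.6 and 7.86 CPM in WT and 2.39, 3.90 and 3.12 in BM livers (log2FC -1.60, SE 0.26, edgeR adjusted p = 0.00206) at day 10. Of 17 other stellate and matrix genes tested at day 4, 11 fell, among them Lum, the matrix proteoglycan lumican, with 18.3, 15.6 and 20.9 CPM in WT and 6.94, 8.30 and 8.91 in BM livers (log2FC -1.18, SE 0.18, edgeR adjusted p = 0.000163). Of 18 at day 10, 8 fell, led by Angptl6 (-2.33) and Cxcl12, a chemokine, with 299, 304 and 324 CPM in WT and 93.4, 70.2 and 46.2 in BM livers (log2FC -2.14, SE 0.23, edgeR adjusted p = 0.000282). Genes were named so far from these lists only if BM mice did not overlap WT mice on RNA at the day given. That separation is therefore a rule of selection and not a result. On RPFs of day 10, 5 of 17 other stellate and matrix genes rose and 6 fell, and by totals 7 rose and 4 fell. Of all genes 24.5% rose and 22.3% fell in that comparison, so the share that rose was near the background. The 5 that rose are named after their values were seen: the collagen chain genes Col5a2 (1.15) and Col4a2 (0.69), Lox, which cross-links collagen (1.29, from as few as 7 counts in a library), the growth factor receptor Pdgfra (0.62) and Lum. Lum RPFs were 24.3, 29.3 and 28.6 CPM in WT and 33.8, 40.4 and 52.5 in BM livers (log2FC 0.61, SE 0.20, edgeR adjusted p = 0.0423), above all WT livers. Its RNA at day 10 was 21.1, 17.2 and 16.45 CPM in WT and 11.3, 13.1 and 18.7 in BM livers and was not called (-0.36), and its RPFs at day 4 had fallen (-0.58), a call lost by totals (-0.16). RPFs of the other macrophage genes rose for 4 of 13 and fell for 2 at day 10 (8 and 2 by totals), again near the 24.5% of all genes that rose on the TMM scale. Those of the other endothelial genes rose for 0 of 16 and fell for 6 (4 and 1 by totals).

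Lists for other cells that whole liver holds were read in the same way. Beside their counts in BM livers, 20.6% of all genes fell and 21.3% rose on RNA at day 4, and 22.8% and 22.9% at day 10. On RPFs these shares were 24.7% and 26.2% at day 4 and 22.3% and 24.5% at day 10. The summed RNA level of 8 infiltrating monocyte and neutrophil genes was 6.62, 12.3 and 9.08 CPM in WT and 19.3, 6.42 and 5.71 in BM livers at day 10, which overlapped, with BM mouse 1 highest. Of its genes at day 10, 0 of the 1 tested on RNA was called by edgeR or DESeq2, with 0 at an unadjusted p under 0.05. On RPFs their sum was 7.43, 15.75 and 8.89 CPM in WT and 25.8, 18.1 and 18.9 in BM livers, which did not overlap, and 2 of 4 tested rose (S100a9 1.28 and Itgax 1.06). The RNA sum of 7 lymphocyte genes was 19.5, 27.8 and 21.6 in WT and 20.9, 14.2 and 18.2 in BM livers, and their RPF sum 27.5, 42.7 and 35.8 and 42.4, 44.5 and 44.0, which also overlapped. Of 4 lymphocyte genes tested on RPFs, 1 rose, Cd3e, a chain of the T cell receptor complex, with 0.612, 0 and 0.601 CPM in WT and 1.57, 5.59 and 4.54 in BM livers (log2FC 3.21, SE 0.77, edgeR adjusted p = 0.0148), from 0 to 7 counts in a WT library. At day 4 the monocyte and neutrophil sum was 15.8, 10.1 and 14.2 against 7.25, 5.19 and 6.95, both tested genes fell (S100a8 -2.58 and Ccr2 -0.77, the latter not called by totals at -0.23), and Ptprc, the common leukocyte antigen, fell by 1.00 on the log2 scale. Of 5 myofibroblast genes tested, 4 fell at day 4, with Spp1 at -1.41, Tagln at -0.98 (not called by totals) and Acta2 at -0.45, which turned to 0.10 under scaling by totals, and 1 fell at day 10 (Tagln, -1.29), all on RNA. On RPFs of day 10, 1 of 5 fell (Tagln, not called by totals) and 1 rose, Thbs1, a matrix glycoprotein, with 4.81, 5.01 and 5.41 CPM in WT and 12.3, 9.47 and 12.8 in BM livers (log2FC 1.17, SE 0.20, edgeR adjusted p = 0.004). Of 5 cholangiocyte genes tested on RNA, 2 fell at day 4, Sox9 among them (-0.66, not called by totals at -0.12), and of 4 on RNA at day 10, 0 were called by edgeR or DESeq2, with 0 at an unadjusted p under 0.05. On RPFs of day 10, 1 of 4 fell, Krt19, a keratin of bile ducts (-1.16, not called by totals), with 2.27, 1.84 and 1.44 CPM in WT and 1.10, 0.466 and 0.909 in BM livers. On RNA all 5 blood genes fell at day 4 and 1 fell at day 10, Alas2, the erythroid haem synthesis enzyme, at -1.60 and -3.02. All 12 hepatocyte genes fell at day 4 (Fgb -2.08, Alb -1.45, Trf -1.43), and 8 fell and 2 rose at day 10 (Serpina1c -3.00, Ttr -2.04, Alb -1.87, and Ahsg upwards at 0.43). On RPFs of day 4, 3 of 5 monocyte and neutrophil, 1 of 2 lymphocyte, 2 of 5 myofibroblast, 2 of 4 cholangiocyte, 4 of 4 blood and 12 of 12 hepatocyte genes fell and 0 rose. On RPFs of day 10, 1 of 5 blood and 9 of 12 hepatocyte genes fell and 0 and 1 rose. No listed gene was at 0 in every library. On RNA by totals at day 4, 5 of the macrophage, 3 of the endothelial, 5 of the stellate and matrix and 10 of the hepatocyte genes fell and 1, 2, 1 and 0 rose. By totals at day 10 the falls were 2, 6, 6 and 8 and the rises 5, 1, 1 and 2. The part of these cells in the marker changes was not tested.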

How the data were processed

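Ribosome profiling and cytoplasmic RNA sequencing were done on lysates of 24 mouse livers, giving 48 libraries, and the groups follow the genotype and day in the sample labels. Mice are separate animals, and p-values measure the spread between the 3 mice of a group. Per the study's methods, the authors trimmed reads with Cutadapt 1.18, collapsed them by molecular identifiers, removed rRNA and tRNA reads, and aligned the rest to GENCODE protein-coding transcripts of GRCm39, RPF reads with BBmap and RNA reads with Bowtie2 2.3.5.1 (SAMtools 1.9). The deposited RPF counts are whole reads on coding sequences, 1 transcript per gene being used (the most abundant one), with 20 codons at the start and 10 at the end left out. The deposited RNA values are expected counts from RSEM 1.3.3, of which at least 99.92% were whole in each library, and they were rounded before testing. Neither was normalized by the authors.

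Of 20622 genes, 20614 had a symbol in the GENCODE annotation used here. Transcripts absent from an RPF table, 1689 to 3019 per library, were taken as 0. Genes were kept by filterByExpr (minimum count 10, minimum total 15), scaled by TMM and tested over all genes with edgeR 4.0.16 (quasi-likelihood, limma 3.58.1, R 4.3.3), with Benjamini-Hochberg adjusted p under 0.1 as the threshold. For TE, the interaction between library type and group was tested. The numbers of the mice pair the RNA and RPF library of each mouse, whose deviations from group means correlated at 0.326 to 0.717, so TE was also fitted with the mouse as a block. Levels are CPM with TMM factors over all libraries of a type. Promoter sequences came from RefSeq (GRCm38.p6), and gene positions are on GRCm39. The fits were tested on simulated counts with 1 fixed spread between mice. Those counts held no drop of hepatocyte mRNAs and no mice that stood apart, so the test does not cover either.

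The members and lists were chosen with earlier results of these data known. All 33 members are named. Of each other list, up to 3 genes per direction were named, those with the largest RNA changes in BM livers among called genes whose mice did not overlap. One gene that this rule names is not reported here. Alternatives were DESeq2 1.42.0, no filter, scaling by library totals, a block by mouse number, and leaving out each mouse. The day differences of B and M, the values without the mice that stood apart and the sums without single genes were chosen after the data had been seen. Counts carry counting error besides the spread between mice.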

Additional observations from a re-analysis of the deposited data

Results flagged for a closer look

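The genotype effects on the markers differed between day 4 and day 10, by a test of the difference itself (edgeR quasi-likelihood test of the interaction over 12 mice, adjusted p under 0.1). Values are the log2 effect at day 10 minus that at day 4. For BM livers on RNA the effect was higher at day 10 by 2.41 for Lyve1, 2.39 for Cd163, 2.31 for Cd68, 1.93 for Cd5l, 1.89 for C1qa, 1.82 for C1qb, 1.69 for Col1a1, 1.65 for C1qc, 1.60 for Vsig4, 1.45 for Col1a2, 1.24 for Adgre1, 0.92 for Csf1r, 0.84 for Clec4f and 0.43 for Mrc1. It was lower by -1.89 for Reln, -1.43 for Lrat, -1.05 for Stab1, -0.83 for Ecm1, -0.58 for Stab2 and -0.45 for Kdr. On RPFs it was higher by 3.02 for Lyve1, 2.50 for Cd163, 2.08 for Cd68, 1.86 for Col1a1, 1.73 for Vsig4, 1.71 for Cd5l, 1.65 for Col1a2, 1.57 for C1qc, 1.56 for C1qb, 1.47 for C1qa, 1.06 for Csf1r, 0.76 for Clec4f, 0.76 for Dcn, 0.69 for Adgre1, 0.67 for Fcgr2b and 0.54 for Ptprb, and lower by -1.26 for Reln, -0.58 for Stab1 and -0.50 for Stab2. Kupffer markers make up 10 of the higher values on each measure. Without BM mouse 1 of day 10 the differences of Cd163, Cd68 and Lyve1 on RNA were 2.62, 2.32 and 2.80, and that of Col1a1 was 1.09 and not called. Of these differences, those of Mrc1 (without 10 of the 12 mice), Col1a1 (9), Kdr (4) and Stab2 (4) on RNA and of Ptprb (11) and Adgre1 (4) on RPFs were lost when a single mouse was left out.

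For B livers on RNA the effect was higher at day 10 by 1.11 for C1qa, 0.84 for Cd5l and 0.79 for C1qb, all Kupffer markers, and lower by -1.25 for Reln, -1.09 for Ecm1, -0.77 for Dcn, -0.48 for Kdr and -0.47 for Mrc1. On RPFs it was higher by 0.81 for Cd5l, 0.75 for Cd68, 0.67 for Clec4f and 0.56 for C1qb, and lower by -0.94 for Reln, -0.93 for Ecm1, -0.84 for Colec11, -0.71 for Ptprb, -0.63 for Dcn, -0.60 for Eng, -0.51 for Stab2 and -0.44 for Kdr. Leaving out a single mouse lost the differences of Kdr (8 of the 12 mice) and Mrc1 (5) on RNA and of Kdr (9), C1qb (8), Stab2 (8), Clec4f (3) and Cd5l (1, WT mouse 3 of day 4) on RPFs. For M livers on RNA it was lower by -0.74 for Ecm1, a value that did not pass without M mouse 2 of day 4 (-0.64). The tests for B and M were chosen after the data had been seen. All 3 effects are taken against the same WT mice.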

How the results depend on the processing

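In BM livers at day 4 scaling by library totals called 18 markers on RNA, 15 on RPFs and 0 on TE. By totals the count was 7 for RNA of B livers at day 10, 4 for RPFs of M livers at day 4, 6 and 4 for RNA and RPFs of M livers at day 10, 10 for RNA of WT livers between the days and 2 for the day difference of M on RNA. DESeq2 called 6 for RNA of M livers at day 4, 2 for TE of BM livers at day 10, 1 for RNA of WT livers between the days and 1 for the day difference of M on RPFs. With no filter on low counts, 5 were called for RNA of WT livers between the days and 2 for the day difference of M on RNA.

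Mice with the same number in different genotypes did not deviate together as a rule, with r from -0.292 to 0.331. In 0 of 12 comparisons was every r over 0.1. Mouse 1 of day 10 was an exception, with r between WT and the other genotypes of 0.0555 to 0.331 on RNA and 0.131 to 0.297 on RPFs. The numbers were taken to pair only the libraries of a mouse. With the replicate block 0 were called for RNA of WT livers between the days, 1 for TE of M livers at day 4, and 8 for TE of BM livers at each day. Of 241 single-marker calls, 232 held under the block, 220 under DESeq2, 227 with no filter and 148 under totals.

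Leaving out 1 mouse gave 4 to 9 calls for B at day 4 on RNA, 3 to 8 on RPFs and 0 to 0 on TE, and 5 to 13, 6 to 21 and 0 to 0 for M. For BM at day 4 it gave 23 to 27, 24 to 27 and 0 to 1. At day 10 it gave 4 to 15, 6 to 15 and 0 to 0 for B, 8 to 13, 6 to 14 and 0 to 0 for M, and 19 to 24, 16 to 27 and 0 to 14 for BM. For WT between the days it gave 0 to 2 on RNA and 0 to 1 on RPFs. For the day differences it gave 17 to 23 on RNA and 17 to 22 on RPFs for BM, 6 to 13 and 7 to 14 for B, and 0 to 1 and 0 to 1 for M.

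Called directions turned under totals for Ptprb (0.0718), Fcgr2b (0.0858) and Kdr (0.0836) on RNA in M livers at day 4, for Eng (0.14), Lrat (0.15), Stab2 (0.21) and Reln (0.25) on RNA and for Pecam1 (0.12), Mrc1 (0.0586) and Kdr (0.0346) on RPFs in BM livers at day 4. Marco in M livers at day 4 ranged from -0.20 without M mouse 2 to 3.21 without M mouse 3 on RNA. The cause was not tested. List medians moved by more than the spread between mice in 21 of 78 cases under totals and in 12 of 576 without 1 mouse, and in 0 of 78 each under DESeq2, the block and no filter. RNA libraries were shallower than RPF libraries, and Des, Cd68 and Col1a1 had few RNA counts.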
